A study of Mus musculus with 3 samples.

Results

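The 6 genes described here are Ddx58, Ifih1, Dhx58, Zbp1, Eif2ak2 and Mavs. All except Mavs encode cytosolic sensors of foreign nucleic acid. Mavs encodes the adaptor of the sensors made from Ddx58 and Ifih1, and is counted with the sensors below. The 6 genes were chosen by symbol from 55536 annotated genes in the tables, and have 32 annotated transcripts. RNA held on chromatin was sequenced as ribosomal RNA-depleted total RNA from macrophages grown from C57BL/6J mouse bone marrow, a primary cell, treated with lipid A at 100 ng/ml for 120 min. Lipid A is the part of bacterial lipopolysaccharide that the receptor TLR4 binds. There is 1 group of 3 libraries, biological replicates 1, 2 and 3 by their labels, all of which received lipid A, so no change with treatment is given. Starting RNA was 1 µg in replicate 1, 250 ng in replicate 2 and 500 ng in replicate 3, and its effect cannot be told apart from that of the replicate. All 3 libraries carry 1 donor label and no label names separate cultures, so each spread and p-value covers these libraries only and may be technical. Sex was not collected and no age is given.

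The RIG-I-like receptors are helicases that bind RNA of viral type in the cytosol. RIG-I, the product of Ddx58, binds short double-stranded RNA with a triphosphate end, MDA5, the product of Ifih1, binds long double-stranded RNA, and LGP2, the product of Dhx58, lacks the signalling domains of the other two and tunes them. RIG-I and MDA5 signal through MAVS, an adaptor on the outer mitochondrial membrane, to the kinases that activate interferon regulatory factors and NF-κB. ZBP1 binds nucleic acid in the Z form and can start cell death through RIPK3, and PKR, the product of Eif2ak2, is activated by double-stranded RNA and then stops translation by phosphorylating eIF2α. All of these except Mavs are known as interferon-stimulated genes, and TLR4 signalling is known to induce interferon-β in macrophages. The chromatin fraction is rich in RNA that is still being made, so introns not yet removed are part of what it holds.

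Annotated expected counts, which are reads shared out among genes and need not be whole, totalled 19751051 to 21984526 per library. All 10 macrophage markers examined had a mean of at least 1 TPM (counts per length, scaled to a fixed total per library). None of the 18 markers of T cells, B cells, neutrophils, NK cells, stromal cells or endothelium did, and Cd3e, Cd3g, Ly6g, Elane, Klrb1c and Emcn were at 0 in every library. Replicate 2 stood apart, with 0.327% of expected counts in mitochondrially encoded coding genes against 0.0391% in replicate 1 and 0.0338% in replicate 3, and with macrophage markers summing to 1748 TPM against 628 and 584. The part of that library's difference in the values below was not tested.

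Ifih1 was by far the highest of the 6 genes and Mavs by far the lowest, and the 4 others lay between, in the order Eif2ak2, Ddx58, Dhx58 and Zbp1. The order was the same in each of the 3 libraries. Mean levels were 514 ± 92.5 TPM for Ifih1, 185 ± 66.7 for Eif2ak2, 166 ± 57.6 for Ddx58, 95.95 ± 6.84 for Dhx58, 47.2 ± 15.7 for Zbp1 and 2.51 ± 0.834 for Mavs (SD, n = 3 each). Ifih1 alone made up 51.2% of the summed TPM of the 6 genes on average and Mavs 0.254%. All 6 passed 1 TPM, as did 41.5% of the 22028 protein-coding genes. Transcripts of every sensor were thus present on chromatin, with a wide gap between Zbp1 and Mavs. In bulk RNA of this kind fewer transcribing cells and less RNA per cell cannot be told apart.

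**Figure D1:**
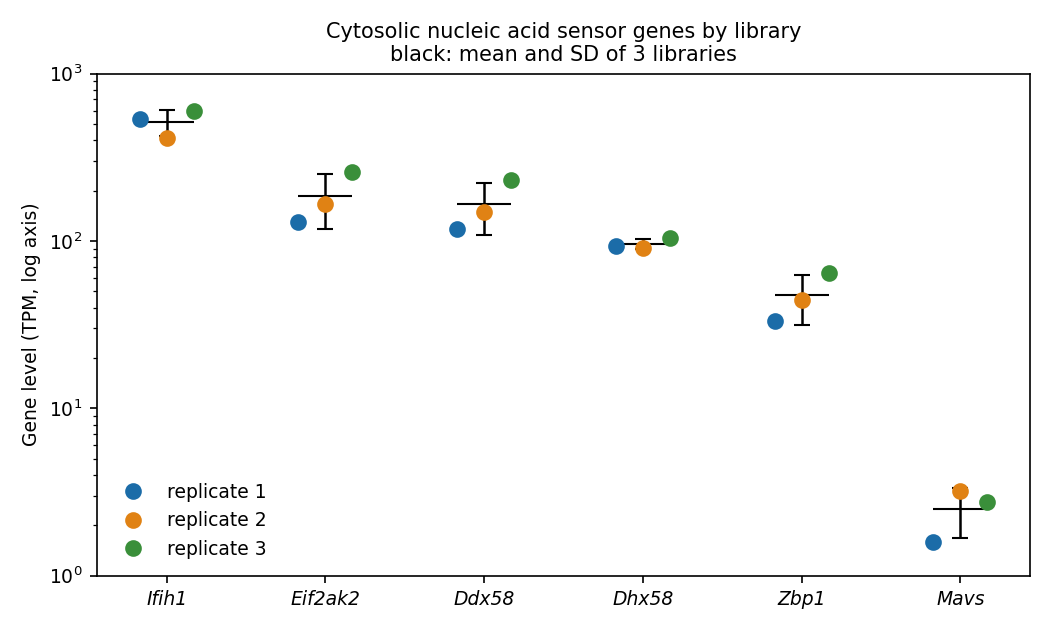
TPM of each gene on a log axis, with 1 coloured point per library and the mean ± SD of the 3 libraries in black. Ifih1 lies between 413 and 594 TPM and Mavs between 1.58 and 3.19, and the points of Eif2ak2 and Ddx58 overlap.

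The distance between neighbours in this order was measured within each library as a difference of log2(TPM + 0.1). Ifih1 exceeded Eif2ak2 by 1.52 ± 0.46, which corresponds to 2.86-fold, and Zbp1 exceeded Mavs by 4.18 ± 0.38, or 18.2-fold. Ddx58 exceeded Dhx58 by 0.73 ± 0.41 and Dhx58 exceeded Zbp1 by 1.07 ± 0.41 on the same scale. The ranges over libraries did not overlap in these 4 pairs. Eif2ak2 and Ddx58 had overlapping ranges, yet Eif2ak2 was the higher in each library, by 0.15 ± 0.026. Each of the 5 differences was positive in 3 of 3 libraries, and each gave p = 0.25 by an exact two-sided sign-flip test, the smallest p that 3 libraries allow. Over protein-coding isoforms alone the gap of Ifih1 over Eif2ak2 was wider (2.54) and that of Zbp1 over Mavs narrower (2.88), and Ddx58 (40.3 TPM) and Dhx58 (39.7 TPM) were nearly level.

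Ifih1 (chromosome 2, 62595798 to 62646255, minus strand, mm10) encodes MDA5. It had 534, 413 and 594 TPM in replicates 1, 2 and 3, from 44201, 28590 and 41470 expected counts. These levels placed it 16th, 49th and 28th among protein-coding genes. Replicate 2 was the lowest library on every one of these scales.

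Ifih1-201, Ifih1-202 and Ifih1-203 separate at exon 3 or its end (chromosome 2, 62635056 to 62635202), a coding exon of 147 nt and so of a whole number of codons. The full-length coding isoform Ifih1-201 has it and the coding isoform Ifih1-202 skips it and ends earlier at the 3′ end. Ifih1-203, annotated as a retained intron, reads on from exon 3 into intron 3 for 1568 nt (62633488 to 62635055) and stops there. The mm10 sequences at these 4 edges are shown because these isoforms part there, though the coding pair also differs at the 3′ end. Both Ifih1-201 edges also occur in Ifih1-205, and the first also in Ifih1-203 and Ifih1-204. The last 24 bases before each edge are in lower case and the first 24 bases after it in capitals, 5′ to 3′ on the minus strand.
Ifih1-201 exon 2 to exon 3: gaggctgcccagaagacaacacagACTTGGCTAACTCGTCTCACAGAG
Ifih1-202 exon 2 to exon 4: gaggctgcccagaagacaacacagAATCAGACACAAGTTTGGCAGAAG
Ifih1-201 exon 3 to exon 4: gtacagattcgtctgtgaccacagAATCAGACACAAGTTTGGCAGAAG
Ifih1-203 exon 3 into intron 3: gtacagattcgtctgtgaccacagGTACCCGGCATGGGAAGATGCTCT
The first pair shares the end of exon 2 and the second pair the end of exon 3, and the capitals after exon 3 of Ifih1-203 open with GT, the usual first bases of an intron.

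In TPM the exon-skipping isoform was the higher of the coding pair, but it is also the shorter (3616 against 5470 nt). Expected counts were nearly level, at 20530, 10417 and 14814 for Ifih1-202 and 19138, 10405 and 13777 for Ifih1-201 in replicates 1, 2 and 3. Ifih1-202 had 256, 147 and 199.99 TPM and Ifih1-201 had 154, 94.8 and 119.97 TPM in replicates 1, 2 and 3. Their ratio hardly moved between libraries, at 1.66, 1.55 and 1.67. The other quantifier, a second deposited transcript table made directly from the reads, put the ratio higher, at 3.28, 3.05 and 3.05. In TPM both tables thus had the skipped form above the full-length form in 3 of 3 libraries (exact sign-flip p = 0.25, the smallest possible). They differed in the size of the ratio. Ifih1-202 also has the shorter 3′ end, so this ratio does not rest on exon 3 alone.

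The isoform that ends in intron 3 varied far more. Ifih1-203 had 62.8, 127 and 197 TPM, and its ratio to Ifih1-201 was 0.407, 1.34 and 1.64 in replicates 1, 2 and 3. Ifih1-205, which ends 935 nt into intron 8 (62608250 to 62609184), had 12.4, 27.9 and 46.7 TPM, with ratios of 0.0805, 0.294 and 0.389. For both isoforms replicate 1 was the low library and replicate 3 the high one, and the other quantifier gave the same order of libraries for both ratios. No other annotated Ifih1 model holds these stretches of introns 3 and 8. Reads of RNA not yet spliced there may therefore be given to these isoforms, and the 2 sources cannot be told apart. Over libraries the log2 ratio of Ifih1-203 to Ifih1-201 was -0.06 ± 1.08, so neither form was the higher one throughout. The quantifiers differed most on the short noncoding Ifih1-204 (439 nt). It had a mean of 31.9 TPM, or 6.07% of the gene, but 292 TPM, or 40.8%, with the other quantifier.

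**Figure D2:**
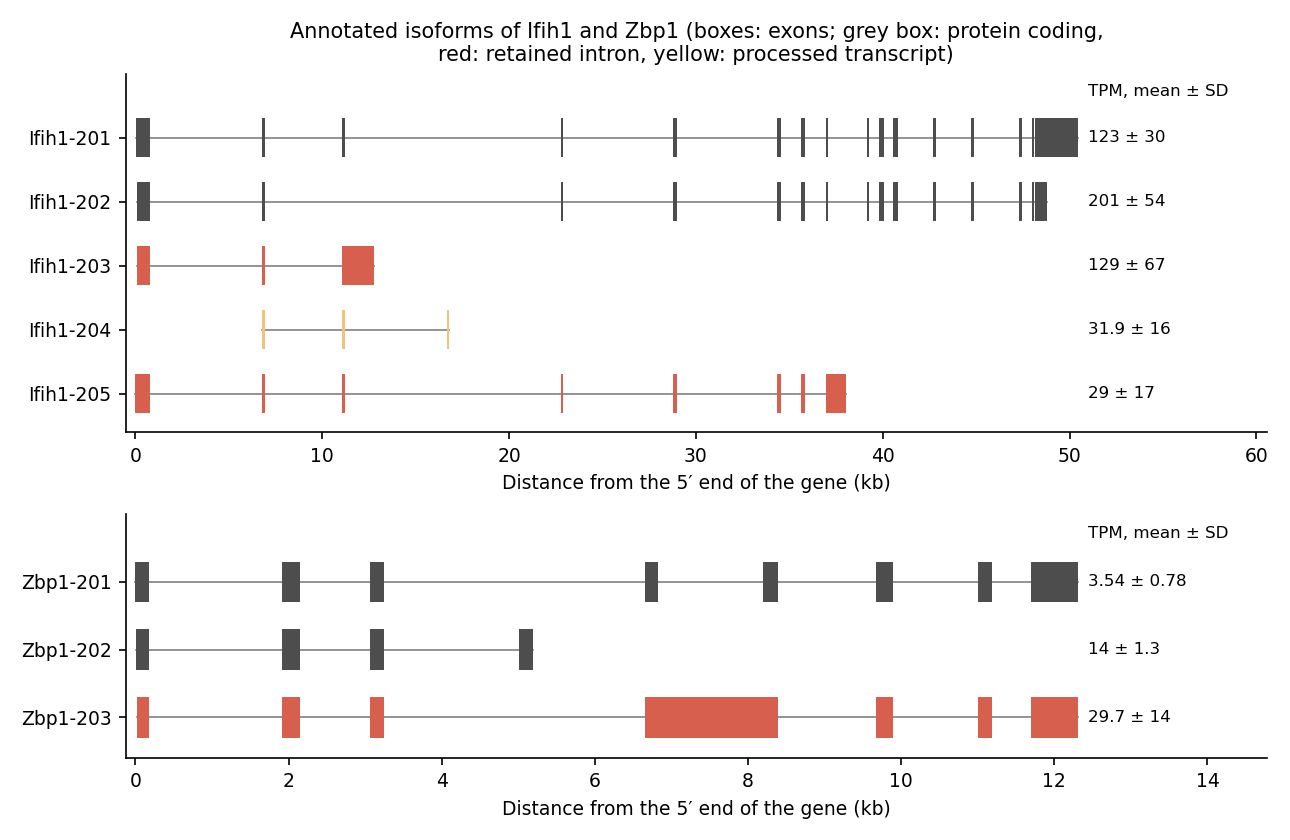
Exons (boxes) of the annotated isoforms of Ifih1 and Zbp1 along the gene in kb from its 5′ end, with the mean ± SD of TPM over 3 libraries at the right. The wide red boxes are the exons that run into intron 3 (Ifih1-203), into intron 8 (Ifih1-205) and through intron 4 (Zbp1-203).

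Ddx58 (chromosome 4, 40203773 to 40239828, minus strand) encodes RIG-I. It had 118, 149 and 229.8 TPM in replicates 1, 2 and 3, which is 1.94-fold between the lowest and the highest. In scaled counts (CPM, counts divided by the library's total after trimmed-mean, or TMM, scaling) it had 311, 263 and 339, only 1.29-fold apart. TPM also divides by the gene's effective length, 2002, 1717 and 1617 nt in replicates 1, 2 and 3, and scaled counts by TMM factors of 0.91, 1.003 and 1.096, so the scales need not move together. Only Ddx58-201 and Ddx58-209 of its 10 isoforms are protein coding, and Ddx58-209 was listed at 0 in replicates 1 and 2 and at 1.76 TPM in replicate 3. The full-length Ddx58-201 had 38.5, 35.2 and 45.5 TPM, while the noncoding Ddx58-210 (1607 nt, with 907 nt outside coding exons) had 15.0, 27.9 and 43.7 TPM. In expected counts the coding isoform differed by 1.35-fold between its lowest and highest library and Ddx58-210 by 2.64-fold.

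Dhx58 (chromosome 11, 100694884 to 100704271, minus strand) encodes LGP2 and was the steadiest of the 6 genes in TPM. It had 93.9, 90.4 and 104 TPM in replicates 1, 2 and 3. Its scaled counts were 150, 101 and 121, so on that scale replicate 1 was the highest library. Its single coding isoform Dhx58-201 had 39.0, 33.4 and 46.7 TPM and held 74.8% ± 1.56 of the gene's expected counts. Of its 5 noncoding isoforms the highest was Dhx58-204 (786 nt) with 27.5, 27.3 and 33.2 TPM. Dhx58os, an antisense gene (chromosome 11, 100687417 to 100697520), overlaps it and had 2.58, 2.49 and 3.96 TPM. The strand setting of the counting is not given in the sources used here, so reads of the 2 genes cannot be told apart where they overlap.

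Zbp1 (chromosome 2, 173206612 to 173218923, minus strand) encodes the Z-form sensor. It had 33.2, 44.3 and 64.2 TPM in replicates 1, 2 and 3. Its scaled counts were 86.3, 98.7 and 139.98, so it had its highest value in replicate 3 on both scales. Intron 4 (173210734 to 173212098, 1365 nt) is spliced out in the coding isoform Zbp1-201 and kept in Zbp1-203, and apart from a few bases at their ends the 2 models are otherwise the same. The mm10 sequences at the edges of intron 4 are shown because they set these 2 isoforms apart, again with capitals from the edge onward.
Zbp1-201 exon 4 to exon 5: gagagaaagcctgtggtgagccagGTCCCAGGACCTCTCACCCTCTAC
Zbp1-203 exon 4 into intron 4: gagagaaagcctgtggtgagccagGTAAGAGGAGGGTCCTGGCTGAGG
Zbp1-203 intron 4 into exon 5: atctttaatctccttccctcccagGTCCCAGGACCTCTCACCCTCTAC
The intron opens with GTAAG and closes with a run of pyrimidines and AG, the usual form of an intron's ends.

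Most Zbp1 reads were given to the form that keeps intron 4. Zbp1-203 held 78.6%, 87.6% and 90.2% of the gene's expected counts in replicates 1, 2 and 3. In TPM it had 16.6, 27.4 and 44.98, against 3.94, 2.64 and 4.04 for the spliced Zbp1-201, so the ratio was 4.22, 10.4 and 11.1. The form that keeps intron 4 stood above Zbp1-201 in 3 of 3 libraries by 2.94 ± 0.77 on the log2 scale (exact sign-flip p = 0.25, the smallest possible). Zbp1-203 is the only annotated Zbp1 model that holds intron 4. Reads of that intron from RNA not yet fully spliced can therefore only be given to it, and the 2 sources cannot be told apart. The other quantifier gave ratios of 3.14, 6.45 and 7.54, lower in size but with replicate 1 again the lowest library. The remaining coding isoform, Zbp1-202, is short (770 nt), ends in another last exon after exon 3, and had 12.6, 14.3 and 15.2 TPM from 166, 154 and 175 counts. It makes up most of the coding TPM of the gene, so any comparison of coding with noncoding Zbp1 turns on it.

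Eif2ak2 (chromosome 17, 78852564 to 78882573, minus strand) encodes PKR. It had 129, 167 and 259 TPM in replicates 1, 2 and 3, and scaled counts of 275, 258 and 337. Replicate 3 was the highest library on both scales. Its coding isoform Eif2ak2-201 held 82.5% ± 1.47 of expected counts but 30.7% ± 2.33 of TPM. The rest of its TPM lay in 3 short isoforms of 574 to 704 nt, among them the retained-intron form Eif2ak2-202 with 30.7, 46.7 and 74.5 TPM. The lincRNA Gm26637 overlaps the 5′ end of Eif2ak2 on the opposite strand and had 3.14 ± 0.701 TPM, and the rRNA entry n-R5s29, also on the opposite strand, was listed at 0 in every library.

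Mavs (chromosome 2, 131234063 to 131248025, plus strand) encodes the adaptor. It had 1.58, 3.19 and 2.76 TPM in replicates 1, 2 and 3, from 100, 180 and 162 expected counts. The bounds deposited by the authors around their posterior estimate were 1.30 to 2.00, 2.67 to 3.66 and 2.31 to 3.21 TPM. The interval of replicate 1 thus lay below those of the other libraries. Its main coding isoform Mavs-201 had 1.37, 1.72 and 2.06 TPM and the coding isoform with another first exon, Mavs-202, had 0.21, 1.04 and 0.70. Mavs-203, annotated for nonsense-mediated decay, was listed at 0, 0.43 and 0 TPM and Mavs-204 at 0 throughout. With the other quantifier Mavs-202 was above Mavs-201 in replicates 2 and 3, so the use of its first exons was not settled at this depth.

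Variation between libraries beyond counting error was tested with a chi-square test of expected counts after TMM scaling, adjusted by Benjamini-Hochberg over 14200 genes. All 6 genes were called, as were 68.8% of all genes tested, so the calls say little about these genes. Mavs had an adjusted p of 0.00115 and the 5 others at most 2.08e-40. The coefficient of variation of scaled counts was 29.2% for Ifih1, 25.9% for Zbp1, 23.4% for Mavs, 19.8% for Dhx58, 14.4% for Eif2ak2 and 12.6% for Ddx58, against a median of 23.2% over all genes tested. None of the 6 was called with a range of at least 2-fold, against 23.2% of all genes. Ddx58, Zbp1 and Eif2ak2 (3 of 6) were called with their highest value in replicate 3, against 25.0% of all genes. Ifih1 and Dhx58 were highest in replicate 1 and Mavs in replicate 2. Leaving out the lowest or the highest library must narrow a range. The ranges without 1 library therefore only show where each library lay. The log2 range between the lowest and the highest library was 0.37 for Ddx58, 0.81 for Ifih1, 0.57 for Dhx58 and 0.65 for Mavs, and without replicate 2 it was 0.12, 0.52, 0.31 and 0.27, when Mavs was no longer called (adjusted p = 0.202). Without replicate 1 it was 0.30 for Ifih1, 0.26 for Dhx58 and 0.39 for Mavs. Without replicate 3 it was 0.099 for Zbp1, against 0.70 with all libraries, and Zbp1 was no longer called (adjusted p = 0.0800). For Eif2ak2 it was 0.19 without replicate 3, against 0.39.

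On the scale of scaled counts, coding and other isoforms of Ifih1, Ddx58 and Zbp1 differed in which library was highest. Scaled counts of coding isoforms were highest in replicate 1 for Ifih1, Ddx58, Dhx58 and Zbp1 and in replicate 3 for Eif2ak2. For Ifih1 they were 2208, 1019 and 1186 in replicates 1, 2 and 3, while its noncoding isoforms, here all isoforms of any other biotype, had 252, 380 and 534. For Zbp1 the coding isoforms had 18.4, 12.2 and 13.7 and the noncoding ones 67.9, 86.5 and 126. For Ddx58 they had 185, 131 and 153 against 126, 132 and 185. In these 3 genes the coding part was thus highest in replicate 1 and the noncoding part in replicate 3. Dhx58 and Eif2ak2 did not share this. The noncoding values of Dhx58 were 37.5, 27.1 and 28.6, highest in replicate 1 like its coding ones, and those of Eif2ak2 were 45.8, 43.1 and 64.8, highest in replicate 3 like its coding ones. In TPM only Ifih1 kept the pattern, with 410, 242 and 319.96 TPM of coding isoforms, while the coding TPM of Ddx58 (38.5, 35.2 and 47.3) and of Zbp1 (16.6, 16.9 and 19.2) was highest in replicate 3. These are descriptions of how reads were assigned, with no test of their own. The share of all genes with this pattern in scaled counts was not counted. In TPM the median log2 ratio of noncoding to coding isoforms over 7221 genes was -0.263, -0.411 and 0.175 in replicates 1, 2 and 3. That median was thus also highest in replicate 3, and nothing particular to these genes is read from the pattern.

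**Figure D3:**
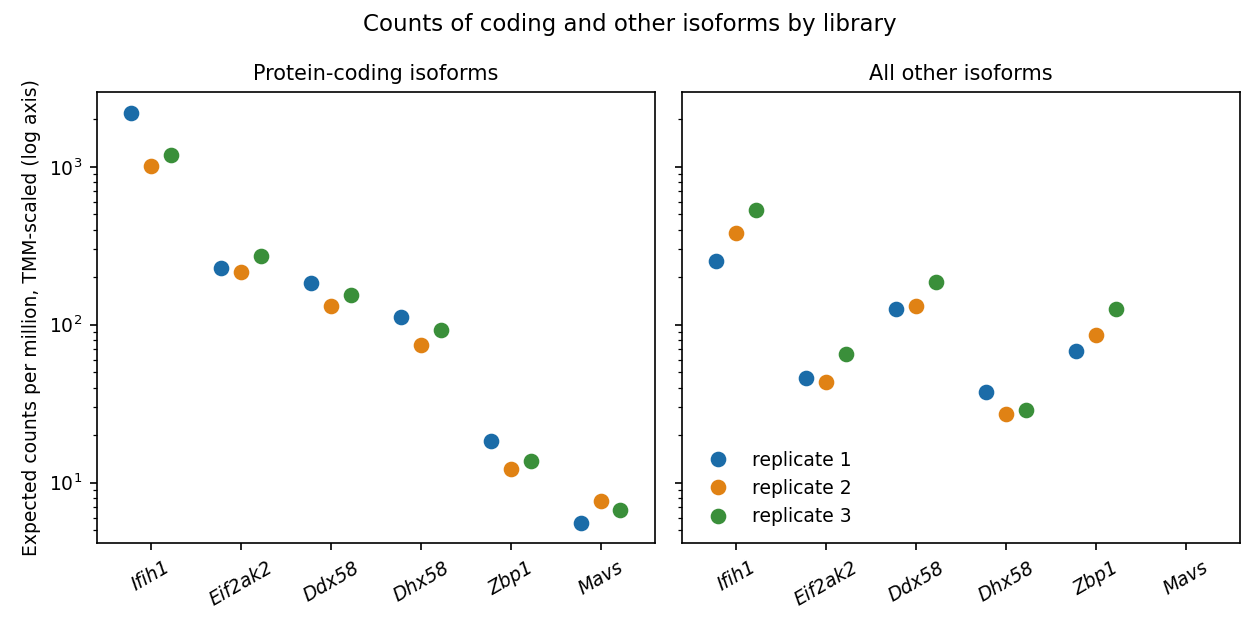
TMM-scaled CPM of protein-coding isoforms (left) and all other isoforms (right) of each gene on a log axis, with 1 point per library. Ifih1 is highest in replicate 1 on the left (2208) and in replicate 3 on the right (534); Mavs is not drawn on the right because its other isoforms are at 0 in replicates 1 and 3.

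Isoforms other than protein coding made up more of the TPM than coding ones in 4 of the 6 genes on average. Some of these isoforms hold bases outside the coding exons, though Dhx58-202 and Dhx58-205 do not. Reads of introns not yet removed can be given to those that do, and the 2 sources cannot be told apart. The noncoding share of TPM was 74.4% ± 6.20 for Ddx58, 69.3% ± 2.33 for Eif2ak2, 60.6% ± 10.04 for Zbp1, 58.8% ± 4.10 for Dhx58, 36.9% ± 12.1 for Ifih1 and 4.49% ± 7.78 for Mavs. The log2 ratio of noncoding to coding TPM, each with 0.1 added, was tested against 0 with limma, adjusted over 7221 genes. Noncoding isoforms were called higher in Ddx58 (1.05, 1.69 and 1.95 in replicates 1, 2 and 3, mean 1.56, SE 0.298, adjusted p = 0.00928) and Eif2ak2 (1.02, 1.17 and 1.34, mean 1.18, SE 0.256, adjusted p = 0.0139). These are 2 of 6 genes, against 21.9% of all genes tested. Noncoding isoforms were called lower in Mavs alone (mean -3.78, SE 0.4998, adjusted p = 0.00311), against 30.6% of all genes, and its size rests on the 0.1 added to isoforms listed at 0 in replicates 1 and 3. With 1 added in its place the ratio was -1.56 (adjusted p = 0.00095), and with the other quantifier -1.03 (adjusted p = 0.017). Dhx58 (mean 0.51, adjusted p = 0.155), Zbp1 (mean 0.64, adjusted p = 0.157) and Ifih1 (mean -0.82, adjusted p = 0.121) did not pass. Ratios of this size may go uncalled with so few libraries, so no equality is read from this. The ratio was lowest in replicate 1 in Ddx58, Ifih1, Zbp1 and Eif2ak2, and 39.9% of all genes tested were also lowest there.

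The direction of these ratios depended on the unit. A short isoform gets a high TPM from few reads, and on expected counts the ratio was -0.09 for Ddx58 (adjusted p = 0.789) and -2.24 for Eif2ak2 (adjusted p = 0.00232), the reverse of their TPM. Dhx58 also turned, to -1.57 (adjusted p = 0.00549), and with the other quantifier Zbp1 stood at -0.79 (adjusted p = 0.0321) and Ifih1 at 0.53 (adjusted p = 0.229). The call for Ddx58 was also lost with isoforms of at least 1000 nt (0.70, adjusted p = 0.0995), where that of Zbp1 was gained (2.94, adjusted p = 0.00106). Without replicate 1 Eif2ak2 kept its ratio (1.25) but not its call (adjusted p = 0.0597), and with retained introns only the ratio itself was lower (0.42, adjusted p = 0.258).

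**Figure D4:**
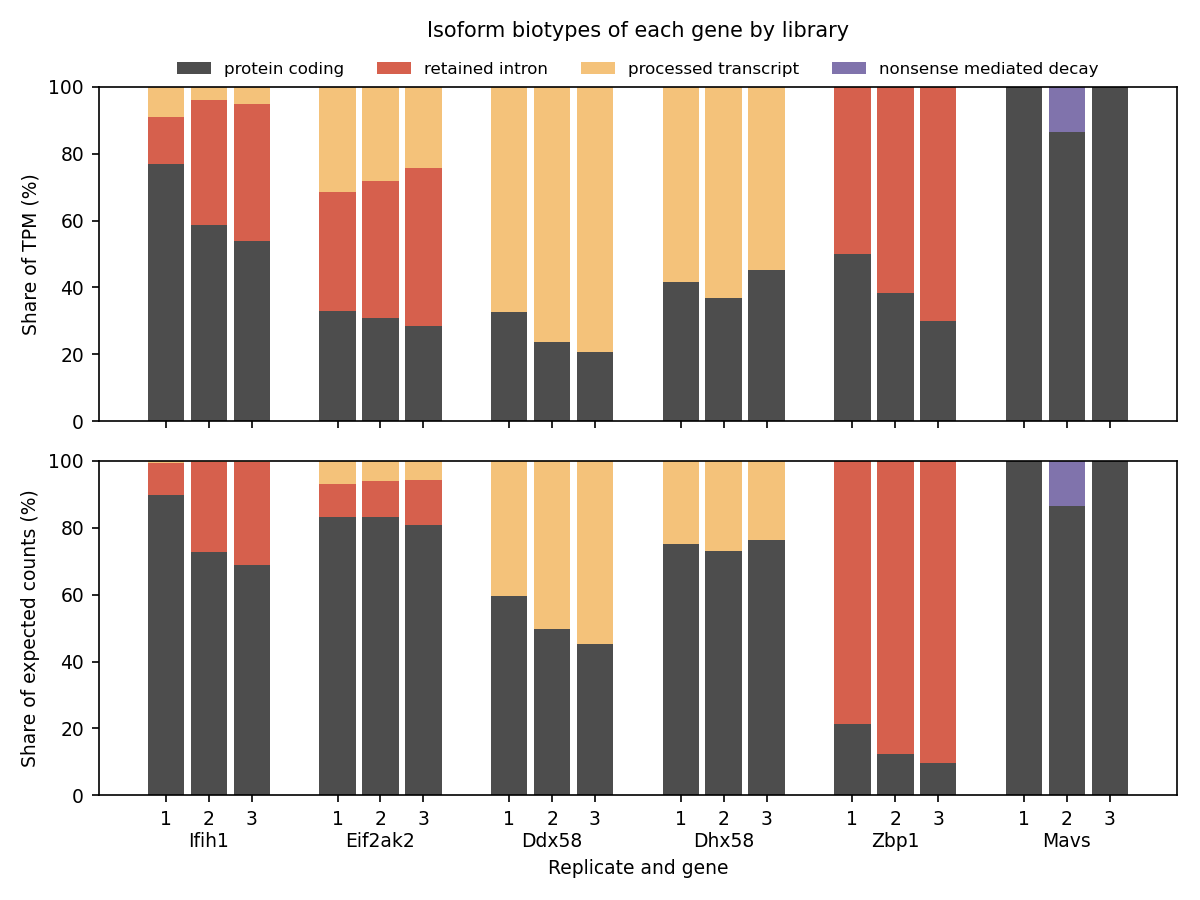
Share of each gene's TPM (top) and of its expected counts (bottom) by annotated isoform biotype, with 1 bar per library (replicates 1, 2 and 3). Eif2ak2 is mostly noncoding by TPM (69.3% ± 2.33) and mostly coding by counts (82.5% ± 1.47), while retained introns lead for Zbp1 in both panels. Reads of introns not yet removed may be part of the noncoding shares.

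The start regions of the genes were examined for 3 motifs, on both strands. RefSeq promoters (GRCm38.p6, 250 bases before to 50 after the start) were at hand for Ddx58, Ifih1, Eif2ak2 and Mavs, 4 of the 6. GAAANNGAAA, the core of the interferon-stimulated response element, was in 3 of these 4 promoters, against 3.44% of 32851 promoters. All 3 matches lie just after the start, and none of the 4 promoters holds the motif in the 250 bases before it, where 2.98% of all promoters do. GAAANGAAA, with a spacer shorter by 1 base, was in 1 of 4 against 3.17%, and TTCNNNGAA, the form of a STAT site, in 1 of 4 against 8.30%. The promoter of Mavs held none of the 3 motifs. A match describes letters only and says nothing of a factor bound there.

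The matches are printed in windows of 30 bases, 5′ to 3′ on the strand of the gene, with the motif in capitals, because they show how alike and how near the start they are. That of Ddx58 after the start is the motif read on the opposite strand.
Ifih1 chr2:62646206-62646235: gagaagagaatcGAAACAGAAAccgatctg
Ddx58 chr4:40239804-40239833: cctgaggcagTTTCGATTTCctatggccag
Eif2ak2 chr17:78882535-78882564: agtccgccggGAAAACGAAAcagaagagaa
Ddx58 chr4:40239866-40239895: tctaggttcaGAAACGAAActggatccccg
Eif2ak2 chr17:78882731-78882760: ctgcagagctTTCCCAGAAtggaagccagg
Counted from the first base of the transcript as 1, the first 3 span bases 33 to 42 in Ifih1, 3 to 12 in Ddx58 and 19 to 28 in Eif2ak2. The GAAANGAAA match of Ddx58 spans bases -60 to -52 and the TTCNNNGAA match of Eif2ak2 bases -178 to -170, and no match overlaps another.

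The wider pathway was described through 84 genes in 7 lists, of which 77 had a mean of at least 1 TPM and whose median was 16.1 TPM. The median of the 6 genes, Mavs among them, was 131 TPM. That of all protein-coding genes was 0.277 TPM, and that of the protein-coding genes with a mean of at least 1 TPM was 7.53. Ubiquitin ligases and cofactors of the helicases had a median of 9.60 TPM, with 13 of 18 at 1 TPM or above. They ranged from Zcchc3, a cofactor of RNA binding (0.06, 0.13 and 0.11 TPM in replicates 1, 2 and 3), to Trim25, a ubiquitin ligase that acts on RIG-I (153 ± 30.6 TPM). Genes of signalling downstream of Mavs had a median of 31.2 TPM with 19 of 20 at 1 TPM or above. Their range ran from the death-domain adaptor Fadd (0.79 ± 0.39 TPM) to the kinase gene Ikbke (732, 726 and 843 TPM in replicates 1, 2 and 3). Ikbke was thus above Ifih1 in every library, while Mavs, which sits between receptors and kinases in the pathway, was lower than 19 of these 20 genes.

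Among other RNA helicase sensors all 8 passed 1 TPM, from Dhx33 (3.66 ± 1.53) to Dhx15 (59.97 ± 10.9), so none reached Ddx58 or Ifih1. Cytosolic DNA sensing (12 of 12) ran from Rnaseh2c, a subunit of ribonuclease H2 (2.72 ± 0.942 TPM), to the nucleotide hydrolase Samhd1 (383, 529 and 949 TPM), which was above Ifih1 in replicates 2 and 3 and below it in replicate 1. The endosomal receptors and their partners (10 of 10) ran from Tlr9, the receptor of CpG DNA (1.30 ± 0.548 TPM), to the ribonuclease gene Rnaset2b (179.6 ± 23.7 TPM), whose reads may be shared with its close copy Rnaset2a. Partners of Zbp1 (7 of 7) ran from Casp6 (1.71 ± 0.722 TPM) to Adar (140.2 ± 50.5 TPM), which edits double-stranded RNA and is also on the list of Eif2ak2. The partners and targets of Eif2ak2 (11 of 12) had their lowest value in the eIF2α kinase gene Eif2ak3 (0.537 ± 0.163 TPM).

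Of the 83 pathway genes tested between libraries 67 were called, 22 of them with the highest value in replicate 3, and 10 with a range of at least 2-fold. Of the 64 with a tested isoform ratio, noncoding isoforms were higher in 14 and lower in 19. These shares stand beside the 68.8%, 25.0%, 23.2%, 21.9% and 30.6% of all genes given above, and nothing particular to the lists is read from them.

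**Figure D5:**
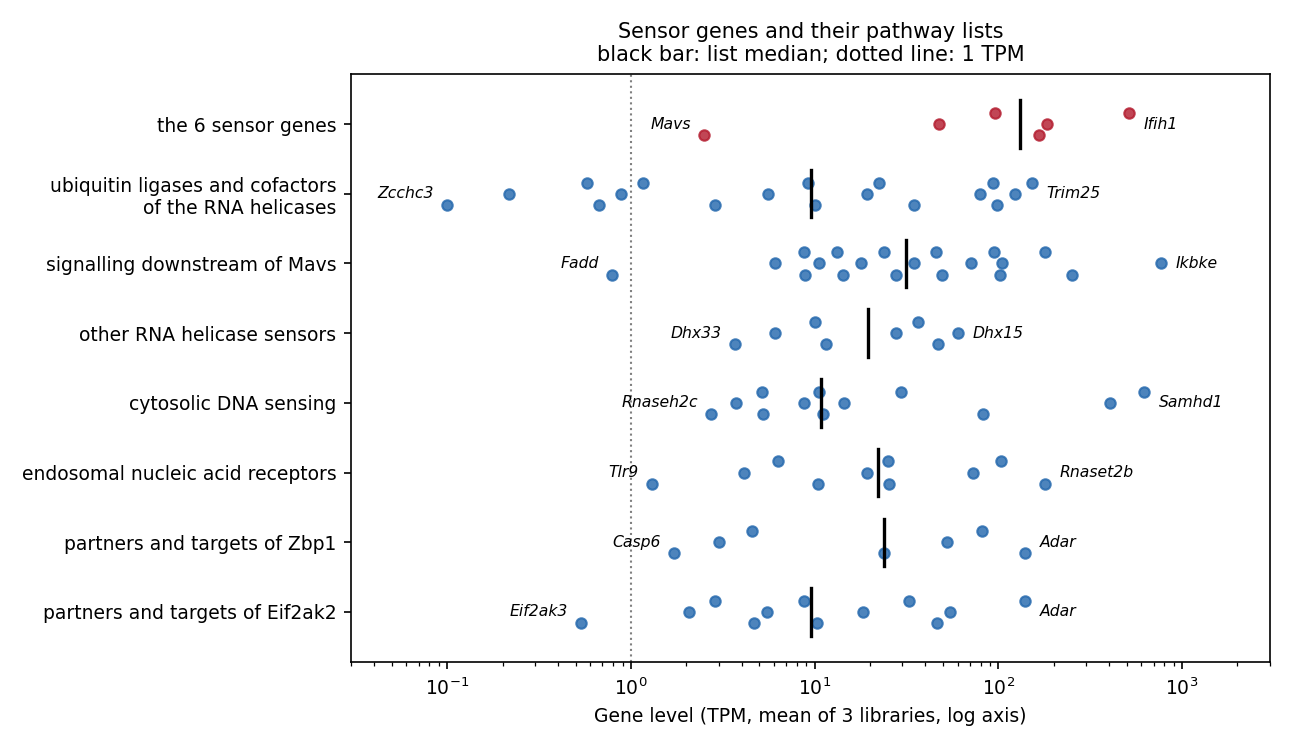
Mean TPM over 3 libraries of the 6 genes, Mavs among them (red), and of each pathway list (blue) on a log axis. List medians are black bars, and the highest and lowest gene of each row are named. The median of the 6 genes, 131 TPM, lies to the right of every list median, the highest of which is 31.2 TPM.

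The protein-coding gene nearest in level to Mavs and to each sensor over the 3 libraries was found by the root mean square difference of log2(TPM + 0.1). It was Parp9 for Ddx58 (0.065), Tnip3 for Ifih1 (0.099), Pcbp2 for Dhx58 (0.034), Dram2 for Zbp1 (0.044), Irf7 for Eif2ak2 (0.056) and Ano8 for Mavs (0.025). Irf7 had 129, 158 and 248 TPM beside 129, 167 and 259 for Eif2ak2. With so many genes and only 3 libraries a close match is easily found, so these name genes of like level and no more.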

How the data were processed

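Each library came with a gene and a transcript table of expected counts and TPM in the column layout of RSEM, made from transcriptome alignments to mm10 with GENCODE M21 according to a deposited note. The authors also deposited estimated counts and TPM per transcript in the layout of kallisto, called the other quantifier here. The bounds around posterior TPM are also the authors' deposited values. Software versions, trimming and strandedness were not given in the sources used here. Symbols and biotypes came from the tables and M21 and matched 55536 of 81881 entries. Unmatched entries held 0.179% to 0.845% of counts and were not tested.

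Samples were grouped by their labels. The quasi-likelihood test of edgeR needs a contrast, which 1 group does not give. Expected counts, rounded, were therefore tested by chi-square with TMM factors (edgeR 4.0.16) in genes averaging 10 or more. Isoform ratios were tested with limma 3.58.1 in genes averaging 50 or more, and both tests used an adjusted p of 0.05. On data simulated with counting error alone, the chi-square test recovered 65% of 1.5-fold and 97% of 3-fold changes, with 7 false calls. The test itself assumes counting error alone, so few false calls were built in and their number in real libraries is not known. On simulated ratios the limma test recovered 47% of log2 shifts of 2 and 81% of shifts of 4, with 4 false calls. Smaller ratios may thus go uncalled. DESeq2 1.42.0 gave size factors for an alternative. Expected counts of several isoforms are model estimates, and intervals cover counting error only.

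The genes and lists were chosen with earlier results of these data known. Named genes are the 6 genes described, the highest and lowest of each list, the nearest gene in level and overlapping genes.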

Additional observations from a re-analysis of the deposited data

How the results depend on the processing

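The order of the 6 genes by mean held under 3 pseudocounts, both quantifiers, coding isoforms only and without each replicate. The 5 mean differences between neighbours kept their sign. With the other quantifier Eif2ak2 exceeded Ddx58 by only 0.042 on the log2 scale (exact sign-flip p = 0.75). Ddx58 was the higher there in replicate 2 (195.6 against 193.9 TPM). Over coding isoforms Ddx58 exceeded Dhx58 by 0.025 (exact sign-flip p = 0.75), but Dhx58 was the higher in replicate 1 (39.02 against 38.51 TPM). With the other quantifier mean levels were 253 TPM for Ddx58, 695 for Ifih1, 137 for Dhx58, 63.7 for Zbp1 and 258 for Eif2ak2. Over coding isoforms, an alternative added after the data were seen, they were 40.3, 324, 39.7, 17.6 and 55.8 TPM in the same order. Per kb of scaled counts Dhx58 stood at 104. A further range of 2-fold left 3298 of 9769 genes varying between libraries, and the other quantifier gave 13598. Noncoding isoforms were higher in 1581 and lower in 2209 genes. With the other quantifier they were higher in 4048 genes, with isoforms of at least 1000 nt in 882 and by expected counts in 946, which also had 4141 lower (the last 2 settings were added after the data were seen). Leaving out 1 replicate gave 982 to 1526 higher and 1460 to 2091 lower. The ratio turned to 0.53 for Ifih1 and -0.79 for Zbp1 (adjusted p = 0.0321) with the other quantifier, and to -0.091 for Ddx58, -1.57 for Dhx58 (adjusted p = 0.00549) and -2.24 for Eif2ak2 by expected counts. Dhx58 was called higher with the other quantifier (1.37, adjusted p = 0.00241), and by expected counts Ifih1 was called lower (-1.90, adjusted p = 0.0266) and Zbp1 higher (2.64, adjusted p = 0.00435). The call for Eif2ak2 was lost without replicate 1 at a ratio of 1.25 (adjusted p = 0.0597) and with retained introns only at 0.42 (adjusted p = 0.258). The cause of these changes was not tested. Isoform length enters TPM and not counts, but the turns with the other quantifier are between values that are both TPM. Counting only the 250 bases before the start, 0 of 4 promoters held GAAANNGAAA. With 1 group no samples could be paired between groups, and genes and isoforms were compared within each library.

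Depth limits Mavs most, with 100 to 180 counts per library. Isoform values of every gene are estimates by a model from reads that several isoforms share, and the 2 quantifiers divided them differently. With 3 libraries the exact sign-flip test cannot give a p below 0.25.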

Other observations

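The coding genes beside the sensors were far lower than the sensors themselves, Mavs apart. Kat2a, whose gene ends 475 nt from the start of Dhx58 on the same strand, had 10.8, 10.1 and 10.8 TPM in replicates 1, 2 and 3. Sult6b1, 1365 nt from Eif2ak2, had 3.83 ± 1.56 TPM and Gpatch11 on its other side 3.47 ± 0.181. Around Ifih1, Fap had 0.903 ± 1.18 TPM and Gca 8.21 ± 2.99. Topors and Aco1 beside Ddx58 had 7.13 ± 1.41 and 8.28 ± 1.84 TPM. Pck1 beside Zbp1 was listed at 0 in every library, and Pmepa1 on its other side had 0.337 ± 0.204 TPM. Beside Mavs, Pank2 had 7.77 ± 2.50 TPM and so was above it, while Ap5s1 had 0.627 ± 0.427. These neighbours were listed after the sensors' values were known.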
